A study of Drosophila melanogaster with 6 samples.

Results

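The *Drosophila melanogaster* genome annotation numbers its genes with CG identifiers, and a gene that has been given no other name keeps that number as its symbol. Among such genes, 30 were lower in wing disc cells with a proneural cluster reporter above a fluorescence threshold than in cells below it. They were represented by 33 of the 4911 probe sets (4482 genes) whose only symbol was a CG number, on an array with 14010 probe sets in all. RefSeq still lists all 30 under their CG symbols.

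The GFP-positive group held 3 samples of wing disc cells in which green fluorescent protein, made from a transgene with regulatory DNA of *E(spl)m4*, exceeded the fluorescence of w1118 discs, which carry no reporter. The GFP-negative group held 3 samples of 100000 cells each from below that threshold, out of discs of the same genotype. Each sample came from about 200 discs of larvae late in the third instar and was measured on 1 array of total RNA. The labels do not state whether samples with different numbers were separate dissections, so the spread between them may be technical.

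The members were chosen by their measured values. The value used is the Signal, a linear brightness in arbitrary units that had been scaled on each array to a target of 500. A probe set entered when its mean log2(Signal + 16) was lower by at least 1 in GFP-positive cells, when its highest GFP-positive Signal was below its lowest GFP-negative Signal, and when at least 2 GFP-negative arrays had a detection call of Present. All differences between the groups given for the members therefore describe the choice and carry no test. Both groups are mixtures of cells, in which fewer cells of a type and less RNA per cell cannot be told apart. Signals of different probe sets are not on a common scale and, apart from the sums over marker lists, are used only within a probe set.

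Proneural clusters are patches of disc epithelium in which cells are competent to become sensory organ precursors, and Notch signalling between them, with *E(spl)m4* among its target genes, singles out the precursors. The cells outside the clusters include posterior compartment cells, wing pouch and hinge cells, and the mesodermal myoblasts attached to the notum. A gene used by any of those cells and little by clusters can have a lower Signal in the sorted GFP-positive cells. The reporter's own gene, *E(spl)m4-BFM*, had Signals of 2128, 2341 and 2591 in GFP-positive cells and 333.7, 326.9 and 48.0 in GFP-negative cells (replicates 1 to 3), so the arrays followed their labels.

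The detection condition kept 1158 of the 4911 CG probe sets. In 143 of these every GFP-positive array was below every GFP-negative array, and 33 of the 143 also met the threshold on the difference, which is 2.85% of those detected. The same conditions held for 79 of 3026 detected probe sets of genes with other names, or 2.61%. In the mirrored direction, 19 of 1018 CG probe sets detected in GFP-positive cells were higher, or 1.87%. The differences between these shares were not tested.

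**Figure D1:**
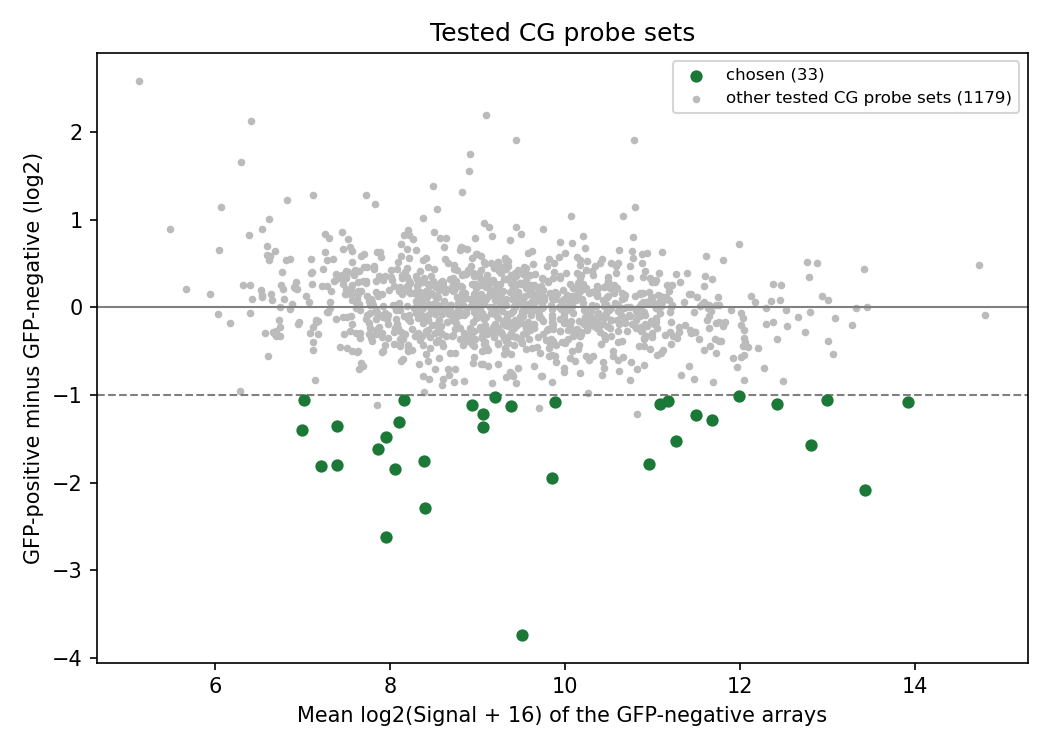
Difference between the group means (GFP-positive minus GFP-negative, log2) against the mean log2(Signal + 16) of the GFP-negative arrays for the 1212 tested CG probe sets, with the 33 chosen ones in green and the threshold of -1 dashed. The chosen probe sets run from dim to bright, with *CG9593* lowest at -3.74.

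The log2 differences of the 33 probe sets ran from -3.74 to -1.01 with a median of -1.35, beside a median of -0.01 over all 4943 tested probe sets. Only 4 lay at or below -2, another 9 between -2 and -1.5, and 20 above -1.5. The lowest GFP-negative Signal exceeded the highest GFP-positive Signal by a factor between 1.11 and 10.5, with a median of 1.61. For 7 probe sets that factor was at least 2, and the others were separated by a narrower margin. As to detection, 13 probe sets were Present on no GFP-positive array, 2 on 1, 4 on 2 and 14 on all 3. The 14 were Present on all 6 arrays.

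**Figure D2:**
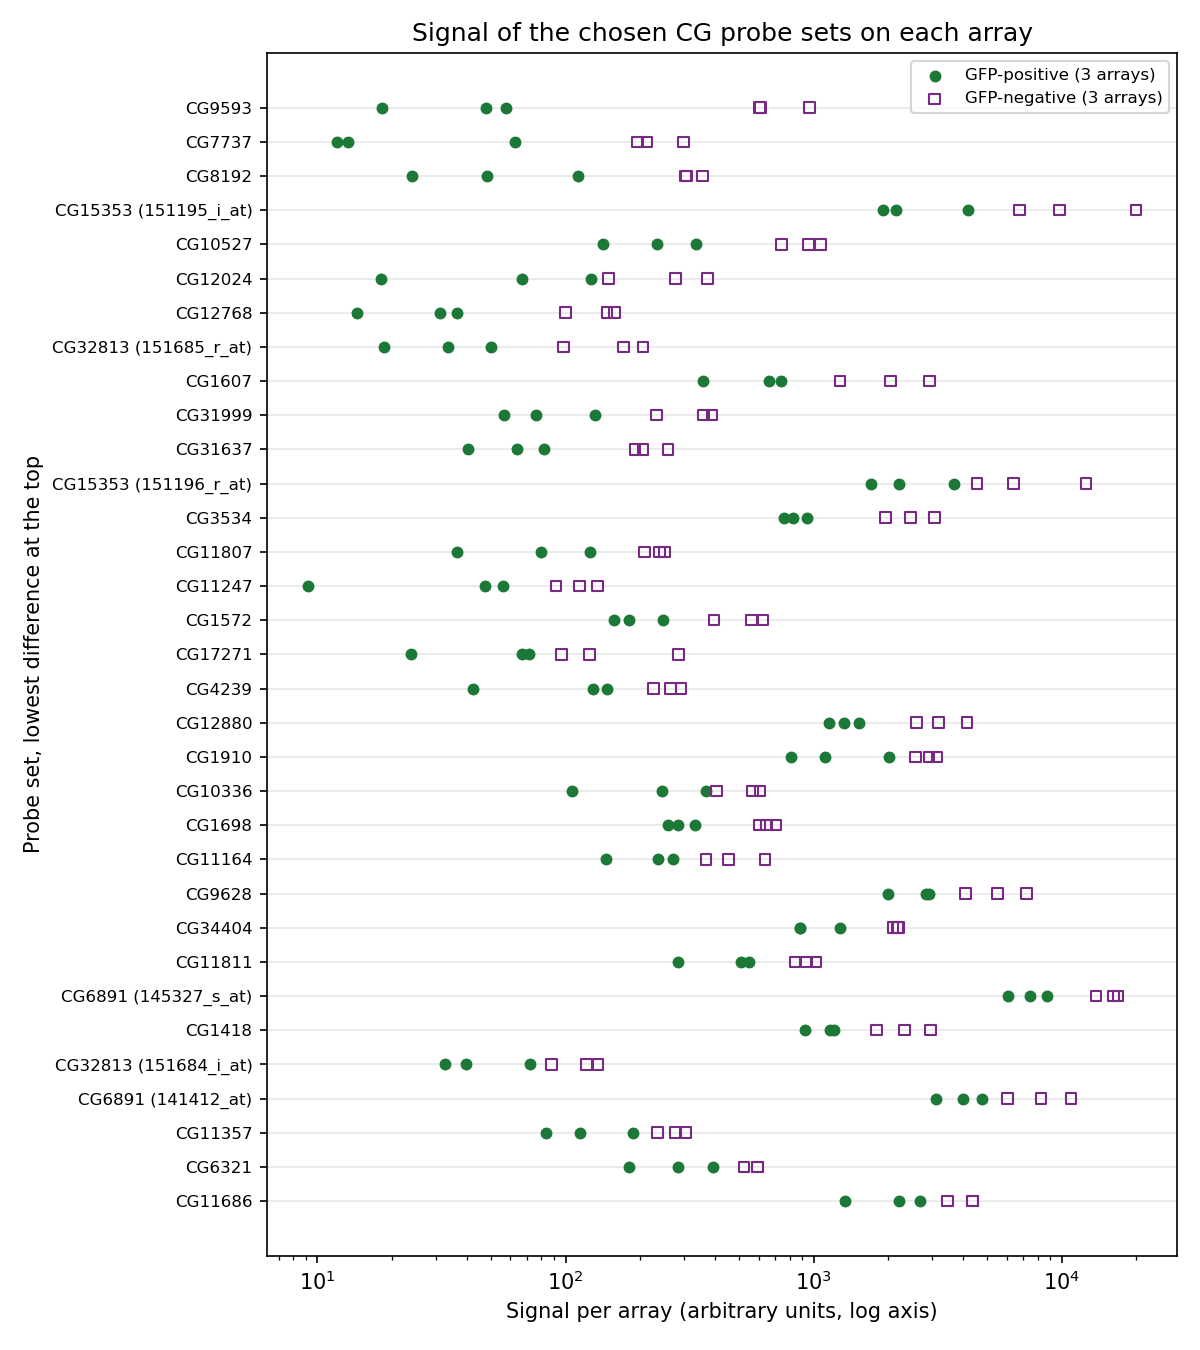
Signal on each array (log axis, arbitrary units) of the 33 chosen probe sets, with filled circles for the 3 GFP-positive arrays and open squares for the 3 GFP-negative arrays, ordered by difference. The groups are widest apart for *CG9593* and almost touch for *CG10336* (367.9 against 406.9) and *CG12024* (126.2 against 149.0).

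A function was read from a RefSeq synonym for 5 of the 30 genes, of which 3 are named as enzymes, 1 as a transporter and 1 as an actin-binding protein. No role is given for the other 25, although some have further synonyms that were not interpreted, such as d6ST1 for *CG31637*.

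Of the enzymes, *CG7737* has the synonym PAOX, the symbol of a mammalian polyamine oxidase that degrades acetylated spermine and spermidine. Its Signals were 12.0, 62.8 and 13.3 in GFP-positive cells and 299.7, 212.9 and 194.9 in GFP-negative cells, a log2 difference of -2.63 (SE 0.446). The GFP-positive arrays were low on replicates 1 and 3 and higher on replicate 2, with Present on 1 of them. Replicates 1 and 3 lay below the lowest Present Signal of their arrays, and the log2 difference was -3.35 with a pseudocount of 1 and -1.71 with 64, so its size is not resolved. *CG10527* has the synonym FAMeT, for farnesoic acid O-methyltransferase, an enzyme name from the synthesis of juvenile hormone in insects. It had 233.2, 141.9 and 335.4 in GFP-positive cells and 1063.8, 741.6 and 956.1 in GFP-negative cells (log2 difference -1.95, SE 0.306), and no GFP-positive array was Present. *CG11357* has the synonym dbeta3GnT, a name of glycosyltransferases that add N-acetylglucosamine to sugar chains, and a further synonym, GalT2, that was not interpreted. It was Present on all 6 arrays, with 83.7, 187.0 and 114.0 in GFP-positive cells and 234.9, 306.3 and 276.0 in GFP-negative cells, and its log2 difference of -1.06 (SE 0.314) lay near the threshold.

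*CG1698* has the synonym DmNAT5, a name from the nutrient amino acid transporters of insects, which carry amino acids into cells with sodium. Its Signals were 257.8, 284.7 and 333.3 in GFP-positive cells, none of them Present, and 705.6, 647.4 and 604.5 in GFP-negative cells, 2 of them Present (log2 difference -1.12, SE 0.217). The arrays of each group lay close together. *CG6891* has the synonym Cotl1, the symbol of mammalian coactosin-like protein, which binds actin filaments. One of its probe sets, of a type whose probes match more than 1 sequence, had 8747.9, 6062.8 and 7442.6 in GFP-positive cells and 16886.4, 16180.9 and 13736.8 in GFP-negative cells. The other, with a standard design, had 4754.6, 3127.7 and 4005.6 in GFP-positive cells and 10911.5, 8245.3 and 6044.0 in GFP-negative cells. GFP-positive replicate 2 was lowest and GFP-negative replicate 1 highest in both. The log2 differences of -1.08 (SE 0.212) and -1.06 (SE 0.265) were within a standard error of each other.

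Among the genes given no role, *CG9593* stood apart. Its Signals were 57.6, 47.6 and 18.2 in GFP-positive cells, none Present, and 964.5, 606.7 and 610.8 in GFP-negative cells, all Present. The log2 difference was -3.74 (SE 0.350) and the level at least 12.2-fold lower. A bound of this kind sets the GFP-negative mean of log2(Signal + 16) against the GFP-positive mean of, on each array, whichever is higher of its measured Signal and the dimmest Present Signal, and it leaves out the spread between arrays. It is given only where a GFP-positive Signal lay below the dimmest Present one, since otherwise it repeats the measured difference. The dimmest Present Signal is taken over all probe sets of an array. Single probe sets were not Present at Signals well above it, so the bound is no guaranteed minimum. *CG8192* came next in this class, with 48.4, 112.3 and 24.1 in GFP-positive cells and 306.8, 305.0 and 356.3 in GFP-negative cells (log2 difference -2.29, SE 0.405), or at least 4.69-fold lower. Its GFP-negative arrays differed little, and the spread was among the GFP-positive arrays, none of them Present.

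*CG12768* had 14.5, 31.3 and 36.6 in GFP-positive cells and 100, 147.2 and 157.6 in GFP-negative cells, a log2 difference of -1.81 (SE 0.382) and a bound of at least 2.92-fold lower. *CG11247*, with 9.2, 47.5 and 55.8 in GFP-positive cells and 91.5, 113.6 and 134.3 in GFP-negative cells (log2 difference -1.40, SE 0.456), was at least 2.06-fold lower. The lowest Signal at which any probe set was Present was 36.8, 31.4 and 29.4 on GFP-positive replicates 1 to 3, and *CG12768* lay below it on replicates 1 and 2 and *CG11247* on replicate 1. The sizes of such differences depend on the pseudocount. With pseudocounts of 1 and 64 in place of 16, the log2 differences were -4.23 and -2.90 for *CG9593*, -2.33 and -1.12 for *CG12768*, and -1.89 and -0.83 for *CG11247*. *CG1572* had 246.8, 179.9 and 157.4 in GFP-positive cells and 561.9, 397.0 and 626.1 in GFP-negative cells (log2 difference -1.37, SE 0.270), with no GFP-positive array Present.

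*CG4239* had 146.5, 129.3 and 42.3 in GFP-positive cells, none Present, and 292.5, 264.3 and 226.1 in GFP-negative cells, 2 of them Present (log2 difference -1.31, SE 0.392). *CG17271* had 66.8, 23.9 and 71.3 in GFP-positive cells, none Present, and 285.9, 96.4 and 125.2 in GFP-negative cells, 2 of them Present (log2 difference -1.35, SE 0.463). In *CG17271* replicate 1 of the GFP-negative group was far above replicates 2 and 3, which came near the GFP-positive arrays. *CG10336* had 367.9, 106.2 and 244.1 in GFP-positive cells, none Present, and 406.9, 608.5 and 568.6 in GFP-negative cells (log2 difference -1.22, SE 0.386). Its replicate 1 arrays were nearly equal, and its margin of 1.11 between the groups was the smallest of the 33 probe sets. *CG12024* was likewise close to overlapping, with 18.1, 66.8 and 126.2 in GFP-positive cells and 372.6, 276.8 and 149.0 in GFP-negative cells, and its log2 difference of -1.85 had an SE of 0.517. It was Present on 1 GFP-positive and 2 GFP-negative arrays.

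Of the genes Present on at least 2 GFP-positive arrays, for which the level was measured in both groups, *CG1607* had Signals of 358.0, 662.4 and 740.3 in GFP-positive cells and 2938.6, 2036.8 and 1278.1 in GFP-negative cells. The log2 difference was -1.78 (SE 0.351), and it was -2.98 between the replicate 1 arrays but -0.77 between the replicate 3 arrays. *CG31999* had 56.6, 131.2 and 76.4 in GFP-positive cells and 359.0, 232.2 and 389.6 in GFP-negative cells (log2 difference -1.75, SE 0.341). In *CG31999* replicate 2 was high among the GFP-positive and low among the GFP-negative arrays. *CG31637* had 40.3, 82.0 and 63.5 in GFP-positive cells and 259.0, 190.3 and 205.6 in GFP-negative cells (log2 difference -1.61, SE 0.321), and there the lowest GFP-negative Signal was 2.32 times the highest GFP-positive Signal.

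*CG3534* had 938.9, 758.6 and 826.1 in GFP-positive cells and 1948.3, 3070.9 and 2457.1 in GFP-negative cells, a log2 difference of -1.53 (SE 0.233), with GFP-positive arrays that lay close together. *CG11807* had 125.5, 79.3 and 36.4 in GFP-positive cells and 208.2, 238.9 and 250.4 in GFP-negative cells (log2 difference -1.48, SE 0.375). *CG12880* had 1521.0, 1157.3 and 1322.9 in GFP-positive cells and 4155.6, 3188.4 and 2603.5 in GFP-negative cells (log2 difference -1.29, SE 0.238). The last was tight in the GFP-positive and more scattered in the GFP-negative group, the reverse of *CG11807*. *CG1910* had 1109.5, 2006.7 and 809.0 in GFP-positive cells and 3140.9, 2915.5 and 2571.9 in GFP-negative cells, where its 3 arrays were close together (log2 difference -1.22, SE 0.310).

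The remaining genes Present on all 6 arrays had differences between -1.11 and -1.01. *CG34404* had 883.6, 1276.6 and 879.7 in GFP-positive cells and 2174.8, 2091.3 and 2195.6 in GFP-negative cells, with hardly any spread between the GFP-negative arrays (log2 difference -1.10, SE 0.223). *CG9628* had 1993.7, 2911.8 and 2828.2 in GFP-positive cells and 4099.6, 7230.4 and 5527.0 in GFP-negative cells, which were the more scattered group (log2 difference -1.10, SE 0.263). *CG1418* averaged 1099 ± 156 in GFP-positive cells, against 2357 ± 586 in GFP-negative cells (SD, n = 3 each). *CG11811* averaged 447.7 ± 143 in GFP-positive cells, against 932.6 ± 91.6 in GFP-negative cells. *CG11164* averaged 217.4 ± 65.1 in GFP-positive cells, against 486.2 ± 137 in GFP-negative cells.

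At the threshold of -1, the members just inside were *CG11686* at -1.01, *CG6321* at -1.02 and *CG11357* at -1.06. *CG11686* had 1334.1, 2679.7 and 2215.4 in GFP-positive cells and 3466.3, 4359.4 and 4371.6 in GFP-negative cells, and *CG6321*, Present on 2 GFP-positive arrays, had 394.0, 179.8 and 284.3 in GFP-positive cells and 594.4, 523.8 and 595.3 in GFP-negative cells. Just outside were *CG46339* at -0.98, *CG17078* at -0.96 and *CG33099* at -0.89. *CG46339* had 576.5, 667.7 and 577.7 in GFP-positive cells and 1155.7, 1335.3 and 1154.1 in GFP-negative cells, a wider margin between the groups than any of the 3 members just inside had. A further 3 CG genes met the threshold and the detection condition but overlapped between the groups, namely *CG5757* (-1.22), *CG4382* (-1.15) and *CG8677* (-1.11).

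The 3 replicate numbers gave medians over the 33 probe sets of -1.44, -1.39 and -1.30 for replicates 1, 2 and 3. The replicate 1 arrays were hybridised on another day than the rest, and the first of these medians is the within-day value for that day. Single probe sets varied more. In 13 of the 33 the lowest and the highest of the 3 differences were over 1 log2 unit apart, and only 12 were at or below -1 in each replicate number. The difference was above -0.5 in 1 replicate number for *CG12024* (-0.21, replicate 3), *CG10336* (-0.14, replicate 1) and a probe set of *CG32813* (-0.25, replicate 2). By contrast, *CG12768* had nearly the same difference each time, at -1.93, -1.79 and -1.72. Within the day 2 arrays the median was -1.24. Within the lot of 3 arrays (GFP-positive replicate 1, GFP-negative replicates 1 and 2) it was -1.37, and within the lot of 2 arrays (replicate 3 of each group) it was -1.30. The remaining lot held 1 GFP-positive array only.

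**Figure D3:**
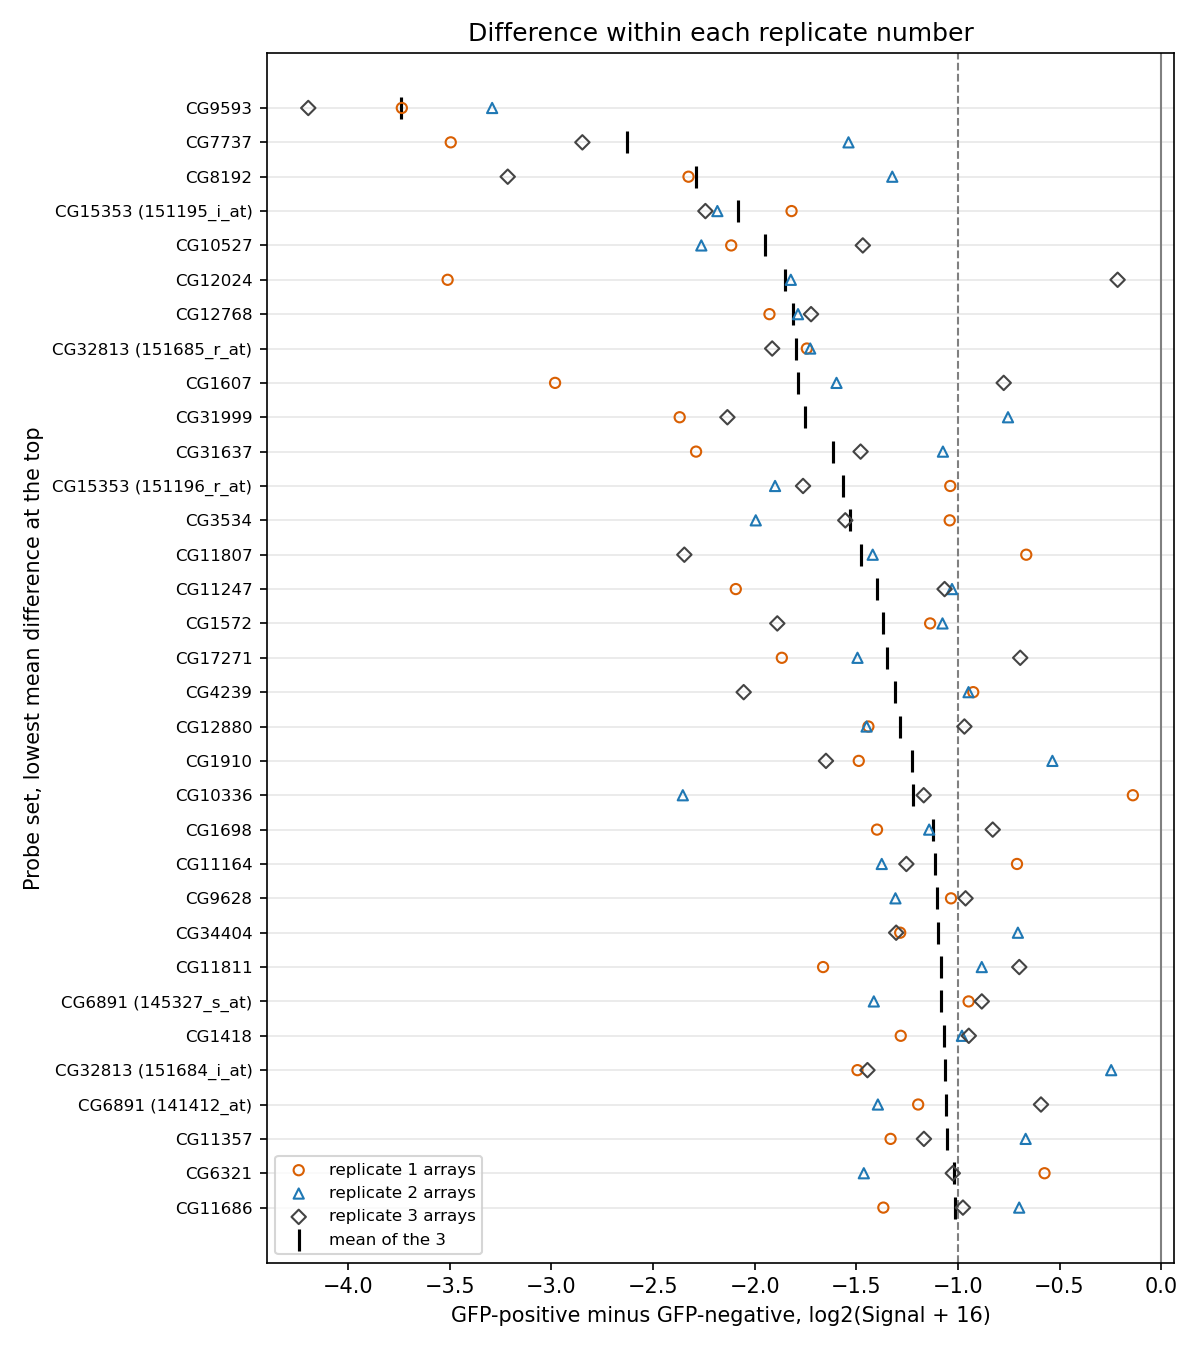
Difference between GFP-positive and GFP-negative arrays of the same replicate number (log2, open symbols) for each chosen probe set, with their mean as a bar and the threshold of -1 dashed. All values are below 0, as the choice required. The 3 symbols are far apart for *CG12024*, *CG1607* and *CG10336* and close together for *CG12768*.

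The choice itself depended on single arrays for about as many genes as not. With each of the 6 arrays left out in turn, 14 of the 30 genes met the conditions every time, among them *CG9593*, *CG7737*, *CG8192*, *CG15353*, *CG10527*, *CG12768*, *CG1607*, *CG31999*, *CG31637* and *CG3534*. The others of the 14 were *CG11807*, *CG12880*, *CG1572* and *CG34404*. Another 5 were lost with 1 of the arrays out, 7 with 2 and 4 with 3. The 4 were *CG11686*, *CG17271*, *CG4239* and *CG6321*. Some losses follow from the detection condition, since with 2 GFP-negative arrays left both had to be Present.

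In the limma fit over all 4943 tested probe sets, which are those Present on at least 2 arrays of a group, 86 had an adjusted p under 0.05 and were lower in GFP-positive cells, or 1.74%. Of the 33 members 17 were among them. All 33 had groups that do not overlap, as the choice required, while 11.4% of all tested probe sets had every GFP-positive array below every GFP-negative array. Since the same contrast chose the members, nothing is read from these counts. With replicate number as a block, 150 probe sets were called lower and 29 of the members. Without GFP-negative replicate 2, 32 probe sets were called lower in all, 6 of them members. These counts were 37 and 6 without GFP-positive replicate 1, and 46 and 6 without GFP-positive replicate 3. They were 64 and 9 without GFP-positive replicate 2, 50 and 11 without GFP-negative replicate 3, and 78 and 15 without GFP-negative replicate 1. In the day 2 arrays alone they were 34 and 3. The probe sets tested numbered 4617 to 4887 with an array left out and 4469 in the day 2 arrays.

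The detection condition let every member pass through the GFP-negative group, and for 15 probe sets that group alone passed it. Those 15 had a median difference of -1.57, while the 18 also Present on at least 2 GFP-positive arrays had -1.11. Both sets had to differ by at least 1 to be chosen, and they were divided by detection on the same arrays. The larger value is therefore no result of its own.

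Of the 30 genes, 19 had 1 probe set on the array and 11 had more. In *CG15353* and *CG6891* both probe sets were chosen. Those of *CG15353* differed in design, and only the first had fewer probe pairs than usual. The first, with 10 probe pairs in place of the usual 14, had Signals of 1904.8, 2150.3 and 4204.4 in GFP-positive cells and 6759.3, 9824.3 and 19953.4 in GFP-negative cells. The second had 2213.8, 1701.1 and 3685.4 in GFP-positive cells and 4562.1, 6390.8 and 12538.4 in GFP-negative cells. In both probe sets replicate 3 was the highest of each group, and their log2 differences were -2.08 (SE 0.407) and -1.57 (SE 0.386). The second was Present on no GFP-positive array although its Signals there were far above the lowest Present Signal of those arrays, so its call and its Signal differ in what they show.

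*CG32813* had 4 probe sets that disagreed. A pair of them were chosen, 1 with the usual 14 probe pairs and 1 with 9. The one with 14 had 50.1, 18.5 and 33.6 in GFP-positive against 205.3, 98.2 and 170.9 in GFP-negative cells. The one with 9 had 32.7, 71.6 and 39.6 in GFP-positive against 121.2, 87.9 and 135.4 in GFP-negative cells. Their log2 differences were -1.79 (SE 0.402) and -1.06 (SE 0.370). Another, Present on all 6 arrays, ran the other way, with 934.1, 726.6 and 739.6 in GFP-positive cells and 802.7, 388.3 and 700.3 in GFP-negative cells (log2 difference 0.39, SE 0.286). The last, Present on none, also had a positive difference of 0.56. The direction of this gene is therefore uncertain.

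The second probe set of *CG17271*, Present on 1 GFP-positive and 2 GFP-negative arrays, had 202.2, 232.0 and 294.8 in GFP-positive cells and 341.5, 331.2 and 245.9 in GFP-negative cells. Its groups overlapped and its log2 difference was -0.32 (SE 0.256). For *CG7737*, *CG1607*, *CG31999*, *CG31637*, *CG1910*, *CG34404* and *CG11357* the second probe set was Present on no array. The differences of these 7 undetected probe sets lay between -0.50 for *CG31999* and 0.48 for *CG31637*, and they give no level to compare.

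**Figure D4:**
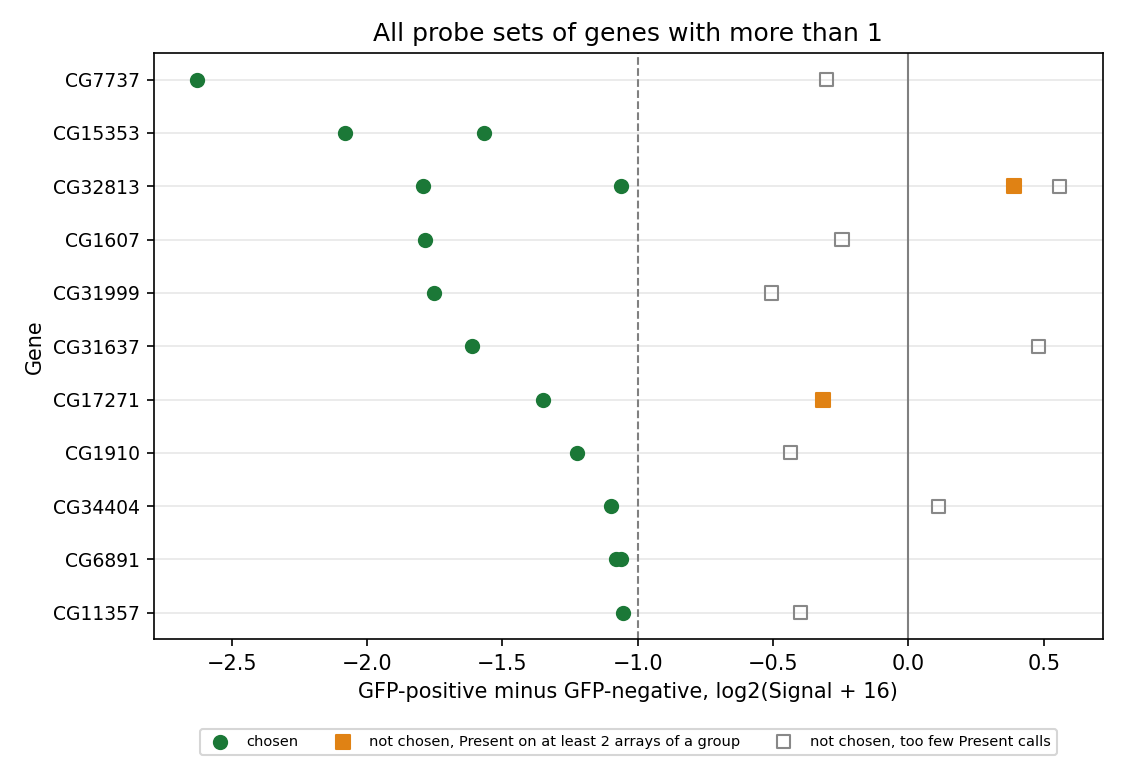
Difference between the groups (GFP-positive minus GFP-negative, log2) for every probe set of the 11 genes that have more than 1, with chosen probe sets as green circles, other detected ones as orange squares and undetected ones as open squares. The detected probe sets that were not chosen belong to *CG32813* (0.39) and *CG17271* (-0.32).

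In the RefSeq order of protein-coding genes, the 30 genes had 60 immediate neighbours, of which 48 were on the array and 19 were tested. No neighbour was itself a member. Neighbours of 2 members were lower by the same conditions. *CG12768* lies next to *Mes2*, a gene known from embryonic mesoderm, which had 25.8, 5.9 and 40.2 in GFP-positive cells and 304.8, 290.7 and 181.3 in GFP-negative cells (log2 difference -2.85). *CG31637* lies next to *eya*, a transcriptional coactivator and phosphatase of the retinal determination network, which had 7.0, 9.8 and 66.6 in GFP-positive cells and 160.2, 243.2 and 262.9 in GFP-negative cells (log2 difference -2.67). In neither case do the annotated spans of the neighbours overlap. Both *Mes2* and *eya* were Present on no GFP-positive array and on all 3 GFP-negative arrays. Another probe set of *Mes2* was Present on no array.

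A neighbour that was lower by these conditions was found for 65 of the 4160 tested genes with a place in the gene order, or 1.56%, and the difference from 2 of 30 was not tested. The 19 tested neighbours had a median log2 difference of -0.03, beside -0.02 over all tested genes, and 10 of the 19 had a negative sign. After *Mes2* and *eya* the lowest was *nsl1* beside *CG9593*, at -0.76, and the highest was *eIF2Bgamma*, whose annotated span overlaps that of *CG8192*, at 0.68. *Nplp4*, beside *CG15353*, had Signals of 8301.6, 8325.6 and 5739.2 in GFP-positive cells and 6585.6, 5798.6 and 5412.5 in GFP-negative cells, a log2 difference of 0.31. Unlike *CG15353* it was not brightest on the replicate 3 arrays, in either group.

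**Figure D5:**
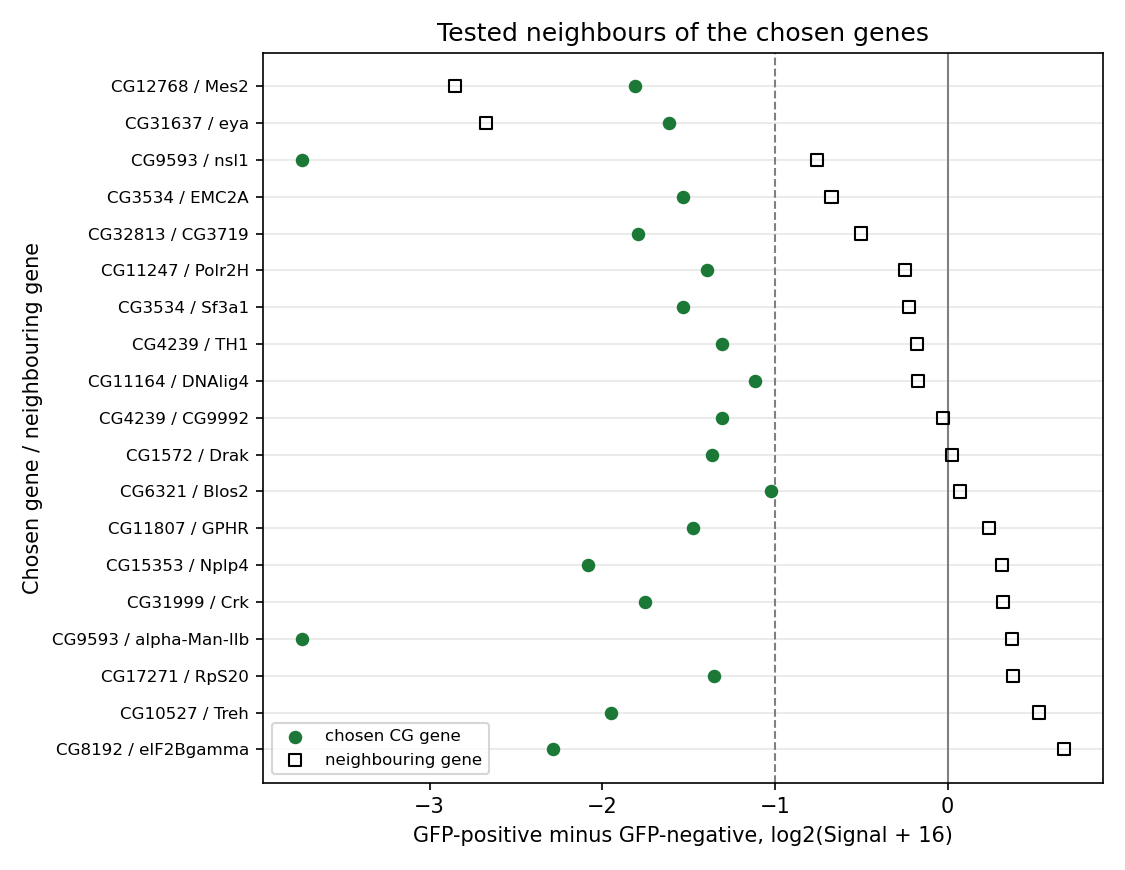
Difference between the groups (GFP-positive minus GFP-negative, log2) of the 19 tested neighbouring genes (open squares), each beside the chosen gene it adjoins (green circles, lower probe set where there are 2). The neighbours *Mes2* and *eya* lie below the dashed threshold of -1, and the other 17 lie between -0.76 and 0.68.

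Genes with other names that met the same conditions numbered 78, on 79 probe sets. Their differences had a median of -1.42 and a lowest value of -3.90, and 31 of the 79 were Present on no GFP-positive array. At or below -2 there were 16 of the 79, and 4 of the 33 CG probe sets. Both sets of values are set by the same choice, and the difference between them was not tested.

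Some markers of other cells of the disc were lower in GFP-positive cells too. Summed Signals over a list are led by its brightest probe sets. Among the muscle precursor genes *sns* was brightest on GFP-positive arrays (mean 761.8). On GFP-negative arrays *Him* (657.7) and *twi* (557.8) were above *sns* (531.9). Among the tracheal genes *pio* was brightest (12539.7 on GFP-positive and 13085.5 on GFP-negative arrays). Of the 8 genes listed for adult muscle precursors 5 were analysed, and their summed Signal was 896.4 to 989.2 on GFP-positive and 2249 to 2608 on GFP-negative arrays. *Him*, *htl*, *twi* and *zfh1* had every GFP-positive array below every GFP-negative array and *sns* was the reverse. No array had a Present call for *twi* or *zfh1*. The 3 posterior compartment genes *en*, *inv* and *hh*, all lower without overlap, summed to 695.3 to 1028 on GFP-positive and 3615 to 4688 on GFP-negative arrays. The 5 notum genes summed to 930.1 to 1278 on GFP-positive and 1411 to 1839.8 on GFP-negative arrays, with *eyg* and *ush* never Present. Of the 5 genes, 3 were lower without overlap, and *eyg* was higher without overlap (184.4 on GFP-positive and 64.6 on GFP-negative arrays). The sums of the 3 wing pouch genes analysed, of 4 listed, overlapped, at 4958 to 8079 on GFP-positive and 3924 to 5721 on GFP-negative arrays. Among them *nub* was lower without overlap (48.0 on GFP-positive and 71.3 on GFP-negative arrays) and *rn* higher without overlap (1603 on GFP-positive and 1033 on GFP-negative arrays), and neither was ever Present. The part of these markers' cells in the lower Signals of the CG genes was not tested.

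The sums of the hemocyte, fat body, glial and tracheal lists overlapped between the groups. They were 493.5 to 636.2 on GFP-positive and 457.3 to 869.3 on GFP-negative arrays for 6 of 7 hemocyte genes, with *Hml*, *Pxn*, *NimC1* and *eater* never Present. For 2 of 5 fat body genes, never Present, they were 337.3 to 520.8 on GFP-positive and 384.5 to 431.5 on GFP-negative arrays. For the 5 glial genes they were 479.5 to 1009.7 on GFP-positive and 436.1 to 517 on GFP-negative arrays, with *moody* and *wrapper* never Present. For 4 of 5 tracheal genes they were 16114.9 to 20027.2 on GFP-positive and 15824.5 to 17583 on GFP-negative arrays, with *btl* and *serp* never Present. In the glial and in the tracheal list 1 gene each was higher without overlap, and none was lower without overlap. The 8 sensory organ precursor genes were all higher without overlap, with sums of 3412 to 4814 on GFP-positive and 622.5 to 910.5 on GFP-negative arrays, although *sens* was never Present. Present calls numbered 4321 to 4541 on the GFP-positive and 4382 to 5039 on the GFP-negative arrays. The ratio of 3′ to 5′ control probe sets can reflect RNA integrity or amplification, which were not told apart here. For *Gapdh* it was 17.2 to 42.7 on the GFP-positive and 19.3 to 33.6 on the GFP-negative arrays. For actin it was 20.4 to 45.7 on the GFP-positive and 22.3 to 73.1 on the GFP-negative arrays, so the groups overlapped for both controls. On every array the 3′ control probe sets were thus at least 17.2 times as bright as the 5′ ones. The effect of this on the differences and on the detection calls was not tested.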

How the data were processed

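Cells sorted from wing discs were measured on 6 Affymetrix arrays, 3 GFP-positive and 3 GFP-negative, grouped by their titles. Per the file headers, the authors' deposited intensity for each probe set is the Signal of the Affymetrix statistical algorithm, scaled to a target of 500 over all probe sets. Detection calls used Alpha1 of 0.04, Alpha2 of 0.06 and Tau of 0.015, and the deposited detection p-values were used only through those calls. The deposited series table repeats these intensity values exactly for 14010 probe sets, so its scale is linear and uncentred, and its column medians were 125.35 to 151.6. Scaling factors were 4.40 to 6.52 and backgrounds 58.5 to 69.2. How the RNA was amplified and labelled is not stated in the labels.

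Signals were used as deposited and transformed as log2(Signal + 16), which understates the change of dim probe sets. The platform table gave symbols, and synonyms and gene order came from a RefSeq gene table of assembly Release 6. The files name no genome build, so no coordinates are printed. Protein and promoter sequences were not analysed here, so the planned sequence features were left out, and functional groups rest on synonyms alone. The 44 control probe sets were left out of all fits. Linear models with group alone were fitted in R 4.3.3 by limma 3.58.1, using trended eBayes and two-sided Benjamini-Hochberg p-values. That fit supplied standard errors, background shares and counts, and no test of a member. It was also run on simulated arrays with independent errors, which lack any day, lot or replicate structure.

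Same-numbered samples deviated together from their group means over 4943 probe sets (correlations 0.40, 0.10 and 0.12 for numbers 1 to 3). This just met the rule used for pairing, although GFP-positive replicate 3 correlated more with GFP-negative replicate 2 (0.22). The replicate 1 arrays were also the only ones of their hybridisation day, so number and day cannot be told apart for them. Because the pairing rule was met, blocked counts are given where they differ. By rule, array values are given for the members with the lowest differences, overall and among those detected in both groups, the brightest members, those nearest the threshold and all probe sets of genes with several. The members and lists were chosen with earlier results of these data known. Alternatives covered the pseudocount, scaling, detection and overlap conditions, batches and each array left out.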

Additional observations from a re-analysis of the deposited data

How the results depend on the processing

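The median log2 difference of the chosen probe sets was -1.35 and lay between -1.47 and -1.09 under the other pseudocounts, scalings, blocks and array subsets. It ran from -1.40 to -1.29 when an array was left out. Median scaling moved the median over all tested probe sets to -0.12, from -0.01 as deposited. Of 561 values of single members, 511 moved by less than 1 SD of the arrays within a group, 50 by more and 0 turned sign. The choice required groups that do not overlap, so only a change of scaling could have turned a sign. The day and replicate blocks returned the same differences as the main fit, so those values could not move. The number of genes meeting the conditions was 30, and 24 to 38 with an array left out. It was 77 in the day 1 arrays (1 per group), 62 in the lot of 2 arrays and 72 with no detection condition, where fewer arrays or conditions had to be met. The number of probe sets called lower by limma was 86, of which 17 were members. These counts were 150 and 29 with a replicate block, 34 and 3 in the day 2 arrays, and 44 and 4 with no filter (13966 probe sets tested). They were 29 and 6 among the 3567 probe sets Present on all 6 arrays, of which only 14 were members. They ran from 32 to 78 and from 6 to 15 with an array left out. With day as a block 137 were called lower. The cause of these shifts was not tested beyond the fewer arrays or probe sets named. The day 1 pair and each lot alone leave too few arrays for a fit and were not tested. With 3 arrays a group, and with dim Signals near the detection limit, the sizes of the differences are known only roughly.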
